A study of Mus musculus with 6 samples.

Results

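The genes described here are the 9 members of the corticotropin-releasing hormone (CRH), urocortin and PACAP stress signalling system: the ligand genes Crh, Ucn and Adcyap1, the binding protein gene Crhbp, and the receptor genes Crhr1, Crhr2, Adcyap1r1, Avpr1a and Avpr1b. They were chosen by function, as symbols matched to Ensembl identifiers, and all 9 were found among the 37620 identifiers counted. Their transcripts were read by RNA sequencing in whole hippocampi of C57BL/6 mice aged 13 weeks. The groups were 3 wildtype mice and 3 mice labelled as knockout for miR17-92, a cluster of microRNAs transcribed together. No 2 mice shared a litter, so replicates are separate animals. The labels used here do not say which part of the cluster was removed, by what driver or in which cells, and a whole hippocampus mixes all its cell types. The study concerns adult neurogenesis, anxiety and depression, and 1 comparison follows from its design, knockout against wildtype.

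CRH starts the hormonal stress response when it is released from the hypothalamus. In the hippocampus it is made mainly by inhibitory interneurons and acts on pyramidal cells through the receptor CRHR1, while the secreted protein CRHBP holds CRH and urocortin away from their receptors. Urocortin is a related peptide that also binds CRHR2. PACAP, the product of Adcyap1, signals through the PAC1 receptor, the product of Adcyap1r1, which like the CRH receptors raises cyclic AMP. Vasopressin receptors 1a and 1b, the products of Avpr1a and Avpr1b, signal through phospholipase C, and the 1b receptor is known for its place in CA2 pyramidal cells.

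The main mature microRNAs of the cluster are 6 in 4 seed groups, and their sequences are shown because microRNAs pair with their targets through the seed. Sequences are RefSeq's (GRCm38.p6, chromosome 14, plus strand), 5′ to 3′, with the seed, bases 2 to 8, in capitals. The first pair shares one seed, miR-18a has its own, the miR-19 pair shares another, and miR-92a has its own.
miR-17-5p (chr14:115043684-115043706): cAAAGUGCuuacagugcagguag
miR-20a-5p (chr14:115044183-115044205): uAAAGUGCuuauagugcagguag
miR-18a-5p (chr14:115043867-115043889): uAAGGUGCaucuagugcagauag
miR-19a-3p (chr14:115044048-115044070): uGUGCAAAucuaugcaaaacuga
miR-19b-3p (chr14:115044358-115044380): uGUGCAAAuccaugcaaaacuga
miR-92a-3p (chr14:115044476-115044496): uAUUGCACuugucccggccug

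Of the 9 genes, 3 held a 7-base match to one of these seeds in their longest annotated 3' UTR (GENCODE M21, transcript strand only), each a single match and each in a receptor gene. The motifs searched were GCACTTT for miR-17 and miR-20a, GCACCTT for miR-18a, TTTGCAC for miR-19 and GTGCAAT for miR-92a. Among 14542 tested genes with a 3' UTR they were present in 14.9%, 10.2%, 13.8% and 7.98%. The matched stretches are shown with the motif in capitals (GRCm38).
Crhr1 (chr11:104175088-104175116, plus strand, miR-18a motif): tttgctgccctGCACCTTtagacatttac
Avpr1b (chr1:131610840-131610868, plus strand, miR-18a motif): cctcctgccttGCACCTTtagcactgact
Adcyap1r1 (chr6:55498894-55498922, plus strand, miR-17 and miR-20a motif): ttgatccccttGCACTTTggacacttcaa

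The 3' UTRs searched were 995 bases for Crhr1, 2255 for Avpr1b and 4280 for Adcyap1r1. Of genes with a 3' UTR of like length (a ratio from 0.8 up to its inverse), 24.9%, 47.6% and 68.8% held at least 1 of the 4 motifs. The ligand genes Crh, Ucn and Adcyap1, and also Crhbp, Crhr2 and Avpr1a, held none of the 4 motifs in 3' UTRs of 512, 89, 2410, 566, 1229 and 1092 bases. For these, in the same order, 14.5%, 3.0%, 49.1%, 15.7%, 30.9% and 27.3% of genes of like length held at least 1 motif. A match is a description of the letters and does not show a site in use.

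Reads on genes ran from 26439693 to 57246827 per library, and values are given as CPM, the usual depth-scaled read count, with library sizes scaled by TMM. The host transcript Mir17hg had 30 to 47 reads per library in both genotypes, with a wildtype mean of 1.09 ± 0.033 CPM and a knockout mean of 0.970 ± 0.34 CPM (SD, n = 3), so it does not check the labels. Markers of the hippocampal fields were read in all mice, with 12 of 12 dentate granule cell genes, 9 of 10 for CA1, 10 of 10 for CA2 and 10 of 10 for CA3 passing the filter on low counts. Of 10 hypothalamic genes 6 did not pass it, among them those of the peptides orexin, oxytocin and vasopressin. The other 4 passed, and the 10 together summed to 2.29 to 4.36 CPM per mouse. Over all genes, 0 of 16432 tested passed an adjusted p of 0.05 with edgeR's quasi-likelihood test (0%), 1746 had an unadjusted p under 0.05 (10.6%), and DESeq2 called 164 of 13109 (1.25%).

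None of the stress peptide genes passed the test between the genotypes. Ucn and Avpr1a did not pass the filter on low counts and were not tested. Of the other 7, 0 were called with edgeR, with DESeq2 (which gave an adjusted p for 5 of them), with limma-voom or with edgeR's robust fit. At an unadjusted p under 0.05 there was 1 of 7, Crhbp, beside 10.6% of all genes. Libraries of the genotypes did not overlap for 1 of 7, again Crhbp, beside 16.6% of all genes tested. By direction, unadjusted p under 0.05 made up 5.05% of genes higher and 5.58% lower in knockout, and groups that did not overlap 8.29% higher and 8.34% lower. Both shares are near the background. The median log2 fold of the 7, knockout over wildtype, was 0.04, beside 0.000 for all genes tested. Because the tissue is whole, fewer cells of a type and less RNA per cell cannot be told apart in any of these values.

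**Figure D1:**
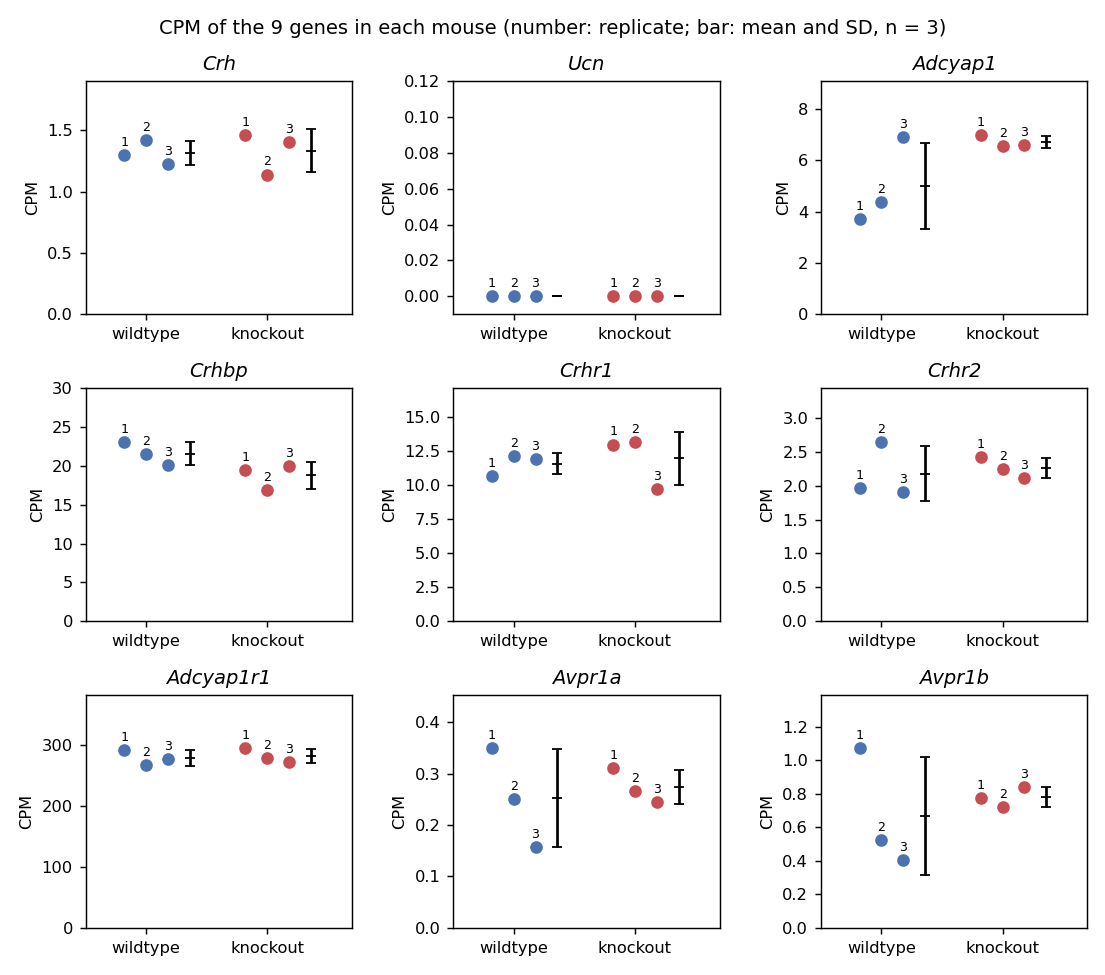
CPM (vertical axes, each on its own scale from 0) of the 9 genes in each of 3 wildtype (blue) and 3 knockout (red) mice; numbers are replicates, and the black bar is the mean and SD of 3. Adcyap1 is low in wildtype replicates 1 and 2 alone, Crhbp is lower in every knockout than in every wildtype mouse, and Ucn is at 0 throughout.

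Crh (ENSMUSG00000049796, chromosome 3), the gene of the hormone itself, was read at a low and even level. The wildtype libraries held 52, 62 and 39 reads (1.295, 1.42 and 1.22 CPM), and the knockout libraries held 47, 30 and 80 reads (1.46, 1.14 and 1.40 CPM). The genotypes overlapped, with the highest and the lowest mouse both among the knockouts. The wildtype mean for Crh was 1.31 ± 0.098 CPM and the knockout mean 1.33 ± 0.17 CPM (SD, n = 3). Their log2 fold was 0.03 (SE 0.19), with an edgeR adjusted p of 0.969. Its spread within a genotype, 7.44% and 12.9% of the mean, was no wider than the 14.0% and 13.8% that counting alone gives at these reads. The 95% interval of the fold ran from 0.759 to 1.37, and changes within that range in either direction remain compatible with these reads. The interval is not a limit of detection after adjustment.

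Ucn (ENSMUSG00000038676, chromosome 5), the gene of urocortin, had 0 reads in every library. A count of 0 allows up to 3 reads per library, which is 0.0524 to 0.113 CPM depending on its depth, for counting error only. No other annotated gene overlaps its exons, nor those of the other 8 genes, in GENCODE M21. That limit holds only if the annotation the reads were counted with could count Ucn, which is not known. The CA1 marker Pou3f1 was also at exactly 0 in all 6 libraries.

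Adcyap1 (ENSMUSG00000024256, chromosome 17), the gene of PACAP, varied widely among the wildtype mice. It measured 3.71, 4.36 and 6.90 CPM in wildtype replicates 1, 2 and 3 (149, 191 and 220 reads) and 6.995, 6.57 and 6.61 CPM in knockout replicates 1, 2 and 3 (225, 173 and 377 reads). Wildtype replicates 1 and 2 were below all knockouts, while wildtype replicate 3 lay among them, so the genotypes overlapped. The wildtype spread was 33.7% of the mean, against 7.32% from counting alone, and the knockout spread was 3.54% against 6.22%. The log2 fold was 0.44 (SE 0.21) with an edgeR adjusted p of 0.502 and a 95% interval of the fold from 0.982 to 1.87. It did not pass. Without wildtype replicate 3 it was 0.73 (SE 0.13, edgeR adjusted p = 0.175), and without wildtype replicate 1 it was 0.26 (SE 0.19, edgeR adjusted p = 0.736).

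Marker lists for tissue next to the hippocampus, and for a hippocampal cell type known to make PACAP, were read beside these values. The 15 choroid plexus genes summed to 200.7 and 199.8 CPM in wildtype replicates 1 and 2, 171 in wildtype replicate 3 and 165.5 to 172 in the knockouts, and 12 of the 15 passed the filter. Of these 12, 7 had a positive and 5 a negative log2 fold, with a median of 0.05. Ttr, the defining marker of the choroid plexus, stood at 39.0 CPM in wildtype replicate 1 and at 5.73 or less elsewhere. Other genes of the list therefore made up most of each sum, also in wildtype replicate 2. The 10 amygdala and cortex genes summed to 372 and 397 CPM in wildtype replicates 1 and 2, 411 in wildtype replicate 3 and 396 to 431 in the knockouts. By gene, 4 of these log2 folds were positive and 6 negative, with a median of -0.09. Of 6 markers of mossy cells, hilar neurons known to express Adcyap1, 4 had a positive and 2 a negative log2 fold (median 0.08). Their sums were 176 to 185 CPM in wildtype and 187 to 191 CPM in knockout. Genotypes did not overlap for 1 of the 6 markers, beside 16.6% of all genes tested. That marker was Ociad2, at 93.2 to 101 CPM in wildtype and 105 to 109 CPM in knockout. The 15 meninges genes, markers of the membranes around the brain, all had positive log2 folds (median 0.38). They summed to 135 to 157 CPM in wildtype and 185 to 195 CPM in knockout. DESeq2 called 3 of them higher, beside 1.25% of all genes called in either direction. Of 12 dentate granule cell genes 11 were positive (median 0.12), with sums of 875 to 931 CPM in wildtype and 987 to 1051 CPM in knockout. For the mossy cell, meninges and dentate granule cell lists, the sums did not overlap between genotypes. Ociad2 made up a large part of the mossy cell sum, so that sum is not separate from the Ociad2 values. The part of these lists in the Adcyap1 values was not tested.

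Crhbp (ENSMUSG00000021680, chromosome 13), the gene of the binding protein, was the only one of the 7 whose genotypes did not overlap. It measured 23.1, 21.6 and 20.1 CPM in wildtype replicates 1, 2 and 3 (929, 944 and 641 reads) and 19.5, 16.9 and 20.0 CPM in knockout replicates 1, 2 and 3 (626, 444 and 1143 reads). The gap between the genotypes was narrow, since wildtype replicate 3 and knockout replicate 3 lay next to each other. The means were 21.6 ± 1.5 and 18.8 ± 1.7 CPM (SD, n = 3), a log2 fold of -0.20 (SE 0.09), with an unadjusted p of 0.0449 and an adjusted p of 0.458 in edgeR. It did not pass. Leaving out knockout replicate 2 gave a log2 fold of -0.13, and leaving out wildtype replicate 1 gave -0.15.

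CRHBP is known from interneurons, and the list of 20 interneuron markers was read beside it. Of these, 9 had a positive and 11 a negative log2 fold, with a median of -0.05, and 0 passed with edgeR or DESeq2. The 3 of smallest p were Kit, a receptor tyrosine kinase gene, at -0.15 (SE 0.06), Lamp5, a marker of neurogliaform cells, at 0.15 (SE 0.06), and Nos1, the neuronal nitric oxide synthase gene, at -0.18 (SE 0.08). Gad1 and Gad2, which make GABA and define the class, stood at 0.08 (SE 0.04) and 0.07 (SE 0.04), and the peptide genes Sst and Npy at -0.18 (SE 0.12) and -0.13 (SE 0.13). The 20 markers summed to 1709 to 1778 CPM in wildtype and 1723 to 1753 CPM in knockout. Their part in the Crhbp values was not tested.

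Per kilobase of exon, Crhbp stood 13.1, 11.2 and 12.1 times above Crh in wildtype mice and 9.77, 10.9 and 10.5 times above it in knockout mice. These ratios did not overlap between genotypes, but neither did Crhbp itself, so they are not a separate observation. They were not tested and carry the counting error of the few Crh reads, 14.0% in wildtype and 13.8% in knockout.

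Among the receptors, Crhr1 (ENSMUSG00000018634, chromosome 11), which carries the CRH signal in the forebrain, was read at 10.7, 12.2 and 11.9 CPM in the wildtype mice and at 13.0, 13.2 and 9.71 CPM in the knockouts. Knockout replicate 3 was the lowest of the 6 mice and the other 2 knockouts were the highest. The log2 fold was 0.04 (SE 0.13, edgeR adjusted p = 0.943), and 0.18 (SE 0.09) without knockout replicate 3. Crhr2 (ENSMUSG00000003476, chromosome 6), a receptor of the urocortins, was read at 1.97, 2.65 and 1.91 CPM in the wildtype mice and at 2.425, 2.24 and 2.12 CPM in the knockouts, which lay inside the wildtype range. Its log2 fold was 0.04 (SE 0.18, edgeR adjusted p = 0.952). Per kilobase, Crhr1 exceeded Crhr2 by 9.52 to 13.0 times in the 6 mice, and the genotypes overlapped.

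Adcyap1r1 (ENSMUSG00000029778, chromosome 6), the gene of the PAC1 receptor, was the most abundant and the steadiest of the 9. The wildtype values were 292, 267 and 277 CPM and the knockout values 294.5, 279 and 272 CPM, from 7343 to 15522 reads per library. The genotypes overlapped, with a log2 fold of 0.01 (SE 0.05, edgeR adjusted p = 0.942). The 95% interval of the fold, 0.936 to 1.09, was the narrowest of the 7. Per kilobase, the receptor stood 45.0, 35.05 and 23.0 times above its ligand gene Adcyap1 in wildtype replicates 1, 2 and 3, and 23.6 to 24.3 times above it in the knockouts, and the ratio varied mostly with Adcyap1. Astrocytes are known to express Adcyap1r1, and 13 of 14 astrocyte markers had a positive log2 fold (median 0.17). Of the 14, 7 were higher at an unadjusted p under 0.05 in edgeR, beside 5.05% of all genes tested. DESeq2 called 4 higher, beside 1.25% called in either direction over all genes, and genotypes did not overlap for 6, beside 16.6%. The 14 markers summed to 6280 to 6955 CPM in wildtype and 6913 to 7445 CPM in knockout. Their part in the Adcyap1r1 values was not tested.

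The vasopressin receptor genes, Avpr1b (ENSMUSG00000026432, chromosome 1) and Avpr1a (ENSMUSG00000020123, chromosome 10), were near the floor. Avpr1b stood at 1.07, 0.525 and 0.408 CPM in wildtype (43, 23 and 13 reads) and 0.777, 0.721 and 0.841 CPM in knockout (25, 19 and 48 reads). All knockouts lay inside the wildtype range. Its log2 fold of 0.22 (SE 0.35, edgeR adjusted p = 0.856) had the widest interval, a fold of 0.667 to 2.03, and became 0.73 without wildtype replicate 1 and -0.02 without wildtype replicate 3. The 10 markers of CA2 pyramidal cells summed to 289 to 308 CPM in wildtype and 285 to 297 CPM in knockout. Avpr1a had 14, 11 and 5 reads in wildtype and 10, 7 and 14 in knockout, or 0.349, 0.251 and 0.157 CPM and 0.311, 0.266 and 0.245 CPM. Wildtype replicate 1 was the highest and wildtype replicate 3 the lowest mouse for both receptors.

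**Figure D2:**
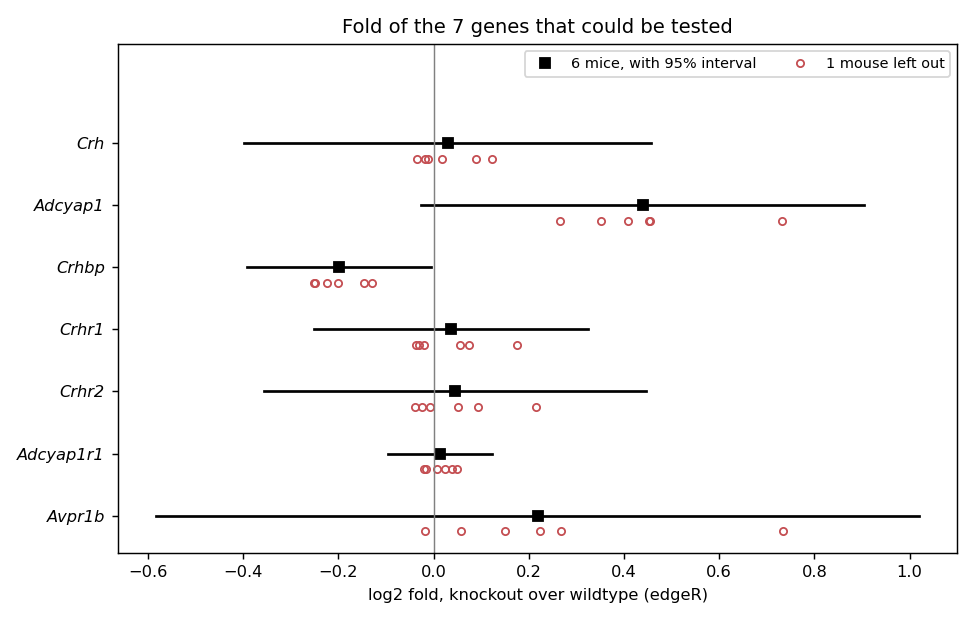
Log2 fold of knockout over wildtype (horizontal axis, edgeR) for the 7 tested genes; squares are the fits on 6 mice with their 95% interval, and open circles are fits with 1 mouse left out. The interval of Crhbp ends just below 0 and the others span 0, that of Adcyap1 narrowly, from -0.03 to 0.90. Open circles of Adcyap1 run from 0.26 to 0.73 and those of Avpr1b from -0.02 to 0.73.

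Levels differed widely between the 9 genes. Per kilobase of merged exon, the median over the 6 mice was 42.1 CPM for Adcyap1r1, 11.1 for Crhbp, 4.90 for Crhr1, 1.74 for Adcyap1, 1.02 for Crh, 0.426 for Crhr2, 0.186 for Avpr1b, 0.0968 for Avpr1a and 0 for Ucn. Each gene exceeded the next in this order in all 6 mice. The ranges over mice overlapped for 2 neighbours, Adcyap1 with Crh and Avpr1b with Avpr1a. Within mice, Adcyap1 over Crh ran from 1.00 to 2.02 and Avpr1b over Avpr1a from 1.39 to 2.28. On the same scale, by the mean, Adcyap1r1 stood above 94.6% of tested genes, Crhbp above 73.9%, Crhr1 above 51.9% and Crh above 23.6%. Adcyap1r1, Crhbp and Crhr1 thus stood above all 3 ligand genes per kilobase, and Crhr2, Avpr1b and Avpr1a below Adcyap1 and Crh. Exon lengths are of GENCODE M21, and transcripts in use may be shorter.

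**Figure D3:**
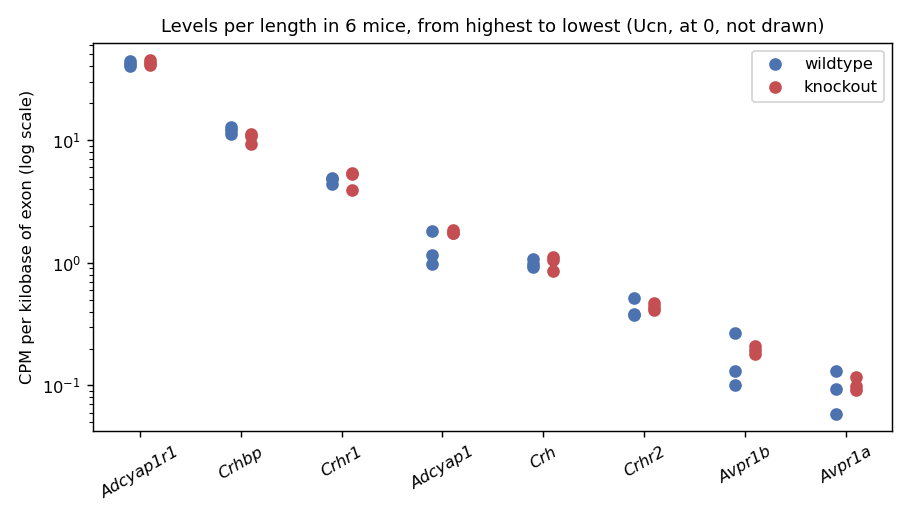
CPM per kilobase of merged exon (vertical log axis) for 8 of the 9 genes, from highest to lowest, with 1 point per wildtype (blue) and knockout (red) mouse; Ucn is at 0 and not drawn. Levels run from a median of 42.1 for Adcyap1r1 to 0.0968 for Avpr1a, and both genotypes sit together at each step.

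Genes whose values followed the ligand genes most closely were found by the mean absolute difference of log2 CPM, centred on the 6 mice, over 14215 protein-coding genes. For Crh these were Gen1 (0.02), Ndufaf2 (0.02) and Parp3 (0.03), each flat between genotypes with log2 folds of 0.03, 0.05 and 0.02. For Adcyap1 they were Arsi (0.08), Mctp2 (0.09) and Hpse (0.10). Like Adcyap1, these 3 were lowest in wildtype replicate 1 and next lowest in wildtype replicate 2, for example 1.52 and 1.71 CPM for Mctp2 against 2.33 to 2.82 CPM in the other mice. With 6 mice and so many genes compared, close neighbours exist for any pattern.

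The other ligands and receptors of these families were mostly scarce. Of 19, 11 could be tested and 0 passed with edgeR or DESeq2. Their folds were positive for 8 and negative for 3, with a median log2 fold of 0.16. An unadjusted p under 0.05 in edgeR was found for 1, beside 10.6% of all genes tested. Ucn2, Ucn3, Avp and Oxt, the genes of urocortins 2 and 3, vasopressin and oxytocin, were among the 8 untested, and none of these 4 exceeded 0.174 CPM in any mouse. Sctr, the secretin receptor, stood at 0.576 ± 0.065 CPM in wildtype mice and at 0.848 ± 0.094 CPM in knockouts (SD, n = 3). Its log2 fold was 0.58 (SE 0.23, edgeR adjusted p = 0.438). Vip, a peptide of interneurons related to PACAP, had a log2 fold of 0.28 (SE 0.14), and the receptor gene Calcrl one of 0.17 (SE 0.10).

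Downstream of the receptors, 0 genes passed in either arm with edgeR or DESeq2. Beside the counts that follow, 10.6% of all genes tested had an unadjusted p under 0.05 in edgeR. The Gs and cyclic AMP arm had 12 of 28 folds positive, a median of -0.01 and 3 unadjusted p under 0.05. These were Crtc1, a CREB coactivator, with a log2 fold of -0.17 (SE 0.04, edgeR adjusted p = 0.286), the phosphodiesterase gene Pde10a with -0.12 and the protein kinase A subunit gene Prkar2a with 0.12. The Gq and phospholipase C arm had 8 of 17 positive, a median of -0.01 and 4 unadjusted p under 0.05. Rgs4, which shortens Gq signals, had a log2 fold of 0.23 (SE 0.07), and the G protein gene Gna11 one of -0.11. Receptor desensitisation and trafficking genes had 4 of 14 positive, a median of -0.03 and 0 unadjusted p under 0.05, with Ramp2, Dlg4 and Grk3 at 0.23, -0.07 and -0.10.

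Genes that process peptides and fill dense-core vesicles had 9 of 14 folds positive and a median log2 fold of 0.03. None passed with edgeR, and 5 had an unadjusted p under 0.05, beside 10.6% of all genes tested. DESeq2 called 1, Pcsk1n, beside 1.25% of all genes. Pcsk1n, an inhibitor of the prohormone convertase PC1, stood at 167, 171 and 164.5 CPM in the wildtype mice and at 115, 145 and 136 CPM in the knockouts, which did not overlap. Its log2 fold was -0.35 (SE 0.08, edgeR adjusted p = 0.2501). Pcsk1, the gene of that convertase, stood at 19.4 ± 1.9 CPM in wildtype mice and at 23.4 ± 0.77 CPM in knockouts (SD, n = 3), with an edgeR adjusted p of 0.330. Scg2, a granin of the vesicle core, had a log2 fold of 0.19 (SE 0.06).

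Factors known to regulate Crh transcription had 3 of 11 tested folds positive and a median log2 fold of -0.08. None passed with edgeR, and 5 had an unadjusted p under 0.05, all lower in knockout, beside 5.58% of all genes tested. DESeq2 called Nr4a1 and Fos, beside 1.25% of all genes in either direction. Nr4a1 and Fos, both switched on by neuronal activity, stood at -0.47 (SE 0.07) and -0.69 (SE 0.14) on the log2 scale, with edgeR adjusted p of 0.118 and 0.238. Nr3c1, the glucocorticoid receptor that represses hypothalamic Crh, had a log2 fold of -0.14 (SE 0.05, edgeR adjusted p = 0.358). Beside these values, the log2 fold of Crh was 0.03. Nr4a1 and Fos also stand on the list of 16 immediate early genes, whose median log2 fold was -0.49. On that list 12 were lower at an unadjusted p under 0.05 in edgeR, beside 5.58% of all genes tested. DESeq2 called 11 lower, beside 1.25% of all genes in either direction, and genotypes did not overlap for 13, beside 16.6%. The hypothalamic regulators Otp and Sim1 did not pass the filter on low counts.

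**Figure D4:**
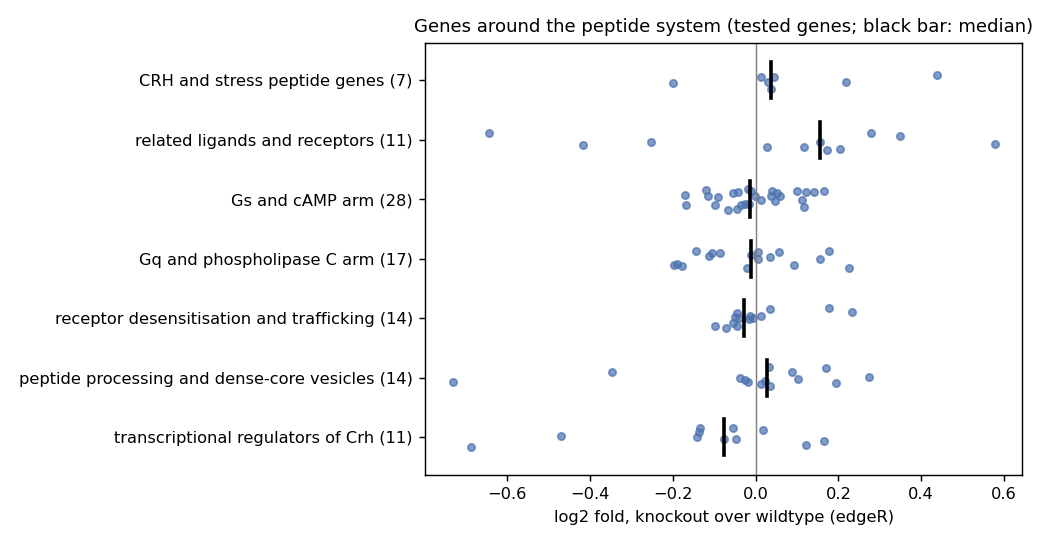
Log2 fold of knockout over wildtype (horizontal axis, edgeR) for each tested gene of the stress peptide system and of 6 lists around it (number of tested genes in brackets); black bars are medians and the grey line is the median of all genes. Medians lie between -0.08 for the regulators of Crh and 0.16 for the related ligands and receptors.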

How the data were processed

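The authors deposited raw read counts per Ensembl gene, 1 table per mouse. Genome build mm9 and the tools HTSeq, STAR 2.3.0e, DESeq2, FastQC 0.10.1 and SAMtools appear, without roles, in the notes on processing by the submitters. Which annotation was counted, and whether strand was used, is not given in the sources used here. Antisense reads may therefore be included. The 5 last rows, which name no gene (38.0% to 40.3% of a file) were left out. Names, exon lengths and 3' UTRs came from GENCODE M21 (GRCm38), which named 32897 of 37620 identifiers, and microRNAs from RefSeq.

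Knockout was tested against wildtype with edgeR 4.0.16 (R 4.3.3; quasi-likelihood, filterByExpr, TMM, Benjamini-Hochberg over all genes tested at 0.05). Standard errors and 95% intervals were derived from its F values. Alternatives were DESeq2 1.42.0, limma-voom 3.58.1, other scalings, filters and covariates, a replicate block, and leaving out each library. In counts simulated for this comparison over 16432 genes edgeR recovered 50% of genes changed 1.5-fold and 74% of those changed 2-fold, with 17 false calls among 141.

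The members and lists were chosen with earlier results of these data known. Named genes were the 9 members, Mir17hg, up to 3 genes of smallest p per list described, and the 3 genes most like Crh and Adcyap1. Sst, Npy, Gad1, Gad2, Ociad2, Pou3f1, Scg5, Pcsk2, Oxtr, Ttr, Otp, Sim1 and the untested ligands named were chosen after their values were seen. One gene that the rule names is not reported here.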

Additional observations from a re-analysis of the deposited data

How the results depend on the processing

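Under the 16 settings tried (10 with every library, 6 without 1 library), 0 of the tested stress peptide genes passed in any. Adcyap1 stayed positive and Crhbp negative in all 16, with edgeR, DESeq2 or limma adjusted p of 0.175 to 0.804 and 0.389 to 0.827. The directions of the others, which did not pass, turned. With limma-voom Crhr1 was -0.019, and with the depth set (the 3 deeper against the 3 shallower libraries) as a covariate -0.055. Leaving out 1 library gave log2 folds from -0.035 to 0.12 for Crh, -0.037 to 0.18 for Crhr1, -0.038 to 0.22 for Crhr2, -0.020 to 0.049 for Adcyap1r1, -0.017 to 0.73 for Avpr1b, -0.25 to -0.13 for Crhbp and 0.26 to 0.73 for Adcyap1. The cause was not tested. Avpr1a, tested only where the filter let it pass, had log2 folds of -0.14 to 0.17, and its value without a filter was 0.08 (SE 0.43). Avpr1b could not be fitted with a filter of 1 CPM in 3 libraries.

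Over all genes edgeR without a filter called 62, DESeq2 164 and the robust fit 15, and without 1 library the count ran from 0 to 17 (16 without wildtype replicate 2, 17 without knockout replicate 3, 2 each without wildtype replicate 1 and knockout replicate 1). Of genes on the pathway and cell type lists these settings called 13, 21 and 4, and 0 to 3 without 1 library (3 without knockout replicate 3, 1 each without wildtype replicates 1 and 2). Medians of the lists moved by less than their spread between mice in 331 of 336 refits. Replicate numbers, which are those of the sample titles, do not pair litters, since every mouse came from its own litter. Whether they follow any other grouping of the mice is not known. With the replicate block 0 genes were called, Adcyap1 had a log2 fold of 0.47 and Crhbp one of -0.20. Libraries sharing a number had deviations with correlations of -0.10, -0.02 and -0.15, and 0 libraries correlated best with their own number. Few reads limit Avpr1a and Avpr1b most.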

Other observations

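Scg5, the gene of the chaperone 7B2 that the prohormone convertase PC2 needs, fell into 2 levels across the mice and was chosen after its values were seen. It measured 279 and 278 CPM in wildtype replicates 2 and 3, 141 CPM in wildtype replicate 1, and 145, 142 and 134 CPM in knockout replicates 1, 2 and 3. The genotypes overlapped, the log2 fold was -0.73 (SE 0.22), and the edgeR adjusted p was 0.331. Pcsk2, the gene of PC2 itself, had a log2 fold of 0.02. Oxtr, the oxytocin receptor gene, measured 10.4 to 17.2 CPM in wildtype and 14.1 to 17.3 CPM in knockout.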
